A study of Mus musculus with 6 samples.

Results

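Untreated AE9a leukemia cells of the mouse were described by the genes that both of their deposited expression values placed at a measurable and similar level. Only the control columns of the 2 deposited tables were read, 1 from the table on CBD and 1 from the table on 4-hydroxytamoxifen (4-OHT), and no column of treated cells was used. A gene was kept when it reached 1 FPKM (a level of mapped fragments corrected for transcript length and for sequencing depth) in both columns and the columns differed by no more than 2-fold. The rule kept 8813 of the 21881 genes listed, a share of 40.3%, and the kept genes were ranked by the geometric mean of the 2 values.

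The series profiled RNA from leukemia cells that carry AE9a together with floxed Id1 alleles (Id1 fl/fl) and a CreER recombinase, on the strain given as C57/B6X129SV. All 6 samples, 2 in each of 3 groups, share AE9a, the floxed Id1 and CreER, so the controls are not wild-type cells. The treated groups received CBD, an inhibitor of Id1, at 15 µM for 16 h, or 4-OHT at 0.1 µM for 48 h, and the control group received neither. Of the control samples, 1 is assigned by its description to the CBD comparison and the other to the 4-OHT comparison. The promoter that drives CreER, a vehicle, the number of cultures or mice behind the cells, and whether they come from 1 clone are not stated by the labels. Each control column holds 1 value per gene, so no spread between replicates, count or test could be given, and every pair of values below is in the order CBD-table control, then 4-OHT-table control.

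AE9a is a shortened splice form of AML1-ETO, the fusion of the transcription factor RUNX1 with the corepressor ETO (RUNX1T1) made by the t(8;21) translocation of human acute myeloid leukaemia. It keeps the DNA-binding domain of RUNX1, and in mice it causes a leukaemia of immature blood cells. Blood progenitors are commonly told apart by a few families of proteins. GATA, TAL1 and KLF factors mark the erythroid, megakaryocytic and mast cell branches, whereas PU.1, the CEBP factors and IRF8 mark granulocytes and monocytes. Lymphoid cells are recognised by antigen receptor genes and factors such as PAX5. Mast cells and basophils share a high-affinity receptor for IgE and granules filled with histamine, proteoglycan and proteases, and their precursors in culture depend on KIT and interleukin 3 signalling.

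Of all genes, 9716 (44.4%) reached 1 FPKM in both columns, and 90.7% of those lay within 2-fold. Across these 9716 genes, which share their libraries and are not independent replicates, the columns had a Spearman correlation of 0.9484 and a median ratio of 1.01. At the other end, 9409 genes (43%) were under 0.1 FPKM in both columns, of which 5699 were listed at 0 in both. A listed 0 is not always a measured 0. Eef1a1, a translation factor that every cell uses, was listed at 0 and 6029.8 FPKM with a status of HIDATA in the CBD table, and 61 entries were at 0 in 1 column and at 1 FPKM or more in the other, 56 of them small RNAs. The estimate carried the status FAIL for 174 kept genes in the CBD table and for 18 in the 4-OHT table. Among the genes named below, these included Eif5a, Lmo2, Tcf3, Stat3 and Cd97 in the first and Ly6e in the second.

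The members nearest the limits show how little separates kept from dropped genes. Fam161b (1.002 and 1.19 FPKM) and Sfxn4 (1.95 and 1.004 FPKM) were just above the minimum, and Kbtbd3 (1.34 and 0.998 FPKM) and Rec8 (1.46 and 0.998 FPKM) just below it. At the 2-fold limit, Nisch (13.9 and 27.7 FPKM) and Acad10 (2.85 and 1.42 FPKM) were kept, whereas P2ry1 (32.4 and 16.2 FPKM) and Hbp1 (15.4 and 7.68 FPKM) were not.

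**Figure D1:**
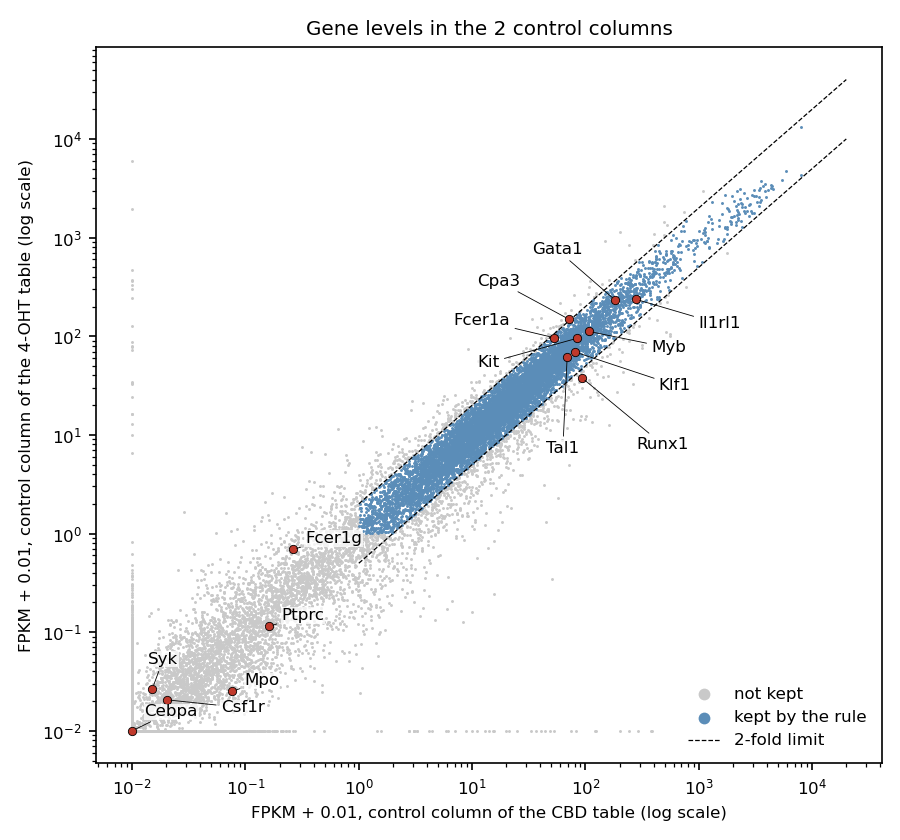
Level of each gene in the control column of the CBD table (x axis) against that in the control column of the 4-OHT table (y axis), both as FPKM + 0.01 on log scales; blue points are the 8813 kept genes, grey points the rest, dashed lines the 2-fold limit, and red points named genes. Kit, Myb, Tal1, Klf1, Gata1 and Il1rl1 lie inside the limits, Cpa3 and Runx1 just outside them, and Mpo, Csf1r, Cebpa and Syk near the origin.

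The 6 genes given as markers of the untreated cells were read first, and 4 of the 6 were kept, beside 40.3% of all genes. The markers were given with earlier results of these data known, so their levels are not an independent check. Kit, the receptor for stem cell factor (chromosome 5, 75971012 to 76052746 in mm9), was at 85.00 and 95.6 FPKM, rank 1146 of the kept genes. Myb, a factor of dividing blood progenitors, was at 107 and 112 FPKM, rank 922. Tal1, the helix-loop-helix partner of the GATA factors in blood, was at 68.9 and 61.3 FPKM, rank 1591. Fcer1a, the IgE-binding chain of the mast cell receptor (chromosome 1, 175151402 to 175157360), was at 52.4 and 96.9 FPKM, rank 1471. These 4 were therefore high in both columns, each above the median of the kept genes, 19.61 FPKM.

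The remaining 2 markers were also high in both columns but failed the 2-fold limit, in opposite directions. Cpa3, the carboxypeptidase of mast cell granules (chromosome 3, 20115515 to 20142080), was at 71.9 and 148 FPKM. Runx1, the blood factor whose DNA-binding domain is part of AE9a (chromosome 16, 92601711 to 92826311), was at 92.6 and 38.01 FPKM. Whether reads from the AE9a construct were counted to Runx1 or to Runx1t1 was not tested. In bulk RNA such as this, fewer cells of a type and less RNA per cell cannot be told apart, for these markers and for every gene below.

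The kept genes held 94.03% and 92.67% of the summed FPKM of the 2 columns. Their levels were spread around a lower quartile of 8 FPKM and an upper quartile of 46.44 FPKM, against a median of 0.3249 FPKM over all genes listed. In all, 1029 kept genes had a geometric mean of 100 FPKM or more, and 6110 had 10 FPKM or more. By RefSeq gene type, 7572 (85.92%) were protein coding and 66 long non-coding, and 1025 symbols had no RefSeq match.

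The top of the ranking belonged to the ribosome. The 89 kept genes whose symbols fit a ribosomal protein pattern held 26.14% and 20.84% of the summed FPKM, and 68 of the 100 highest genes were among them. The pattern can also fit other genes whose symbols begin alike, and it passes over entries that join several symbols. Rplp1, a stalk protein of the large subunit, led the named genes at 7913 and 4346 FPKM, followed by the small-subunit genes Rps12 (5888 and 4748 FPKM), Rps18 (4424 and 3357 FPKM) and Rps28 (4314 and 3419 FPKM). Then came Rpl8 (4482 and 3089 FPKM), Rplp0 (3797 and 3495 FPKM), Rpl38 (3668 and 3359.6 FPKM), Rpl32 (4078 and 3005 FPKM) and Rps2 (3482 and 3191 FPKM). Ppia, the prolyl isomerase cyclophilin A, was the highest named gene outside the ribosome, at 3535 and 3772 FPKM. Lower in rank, Rpl11, Rps3a, Rps20, Rpl23a, Rps29, Rpl41, Rps16 and Rpl28 had geometric means between 2748 and 3054 FPKM. These genes have many processed pseudogenes, and how reads that fit several copies were counted is not stated.

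Other genes near the top of the ranking, named after their values were seen, had varied roles. Ptma, the nuclear protein prothymosin alpha, was at 2193 and 2960.2 FPKM, Gnb2l1, the ribosome-bound scaffold RACK1, at 2553 and 1794 FPKM, and Eif5a, a translation factor, at 1608 and 2265 FPKM. Actb, cytoplasmic beta actin, was at 1862 and 1859.6 FPKM. The ferritin chains Fth1 and Ftl1, which store iron, were at 2323 and 3085 FPKM and 1295 and 2319 FPKM. The metallothioneins Mt2 and Mt1, which bind zinc and copper, were at 2278 and 1736 FPKM and 2135 and 1443 FPKM. Hsp90ab1, a cytosolic chaperone, was at 1812 and 1929 FPKM, and Ldha, the muscle-type lactate dehydrogenase chain, was at 1518 and 1508 FPKM. An alpha globin entry stood among them, at 1211 and 1423 FPKM, rank 81 of all kept genes.

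Lists of genes known from blood lineages and other tissues were then read in the same columns, against the background of 40.3% of all genes kept and 43% under 0.1 FPKM in both. The lists were chosen with earlier results of these data known. The erythroid list stood highest, with 21 of 35 members kept, none under 0.1 FPKM in both and a median of 33.98 FPKM. The mast cell and basophil list had 13 of 31 kept, a share of 41.9% close to the background, but 27 of 31 reached 1 FPKM in both columns, and its median was 4.788 FPKM. The stem and progenitor list had 12 of 30 kept and a median of 3.034 FPKM. The lists of the other blood lineages had lower medians: 4 of 26 megakaryocyte genes, 4 of 35 monocyte and macrophage genes, 3 of 27 T cell genes, 3 of 21 natural killer genes, 2 of 24 B cell genes, 1 of 20 dendritic cell genes, 1 of 11 eosinophil genes and 0 of 30 neutrophil genes were kept. In the plot of lineage lists, the neutrophil median lies at 0.

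**Figure D2:**
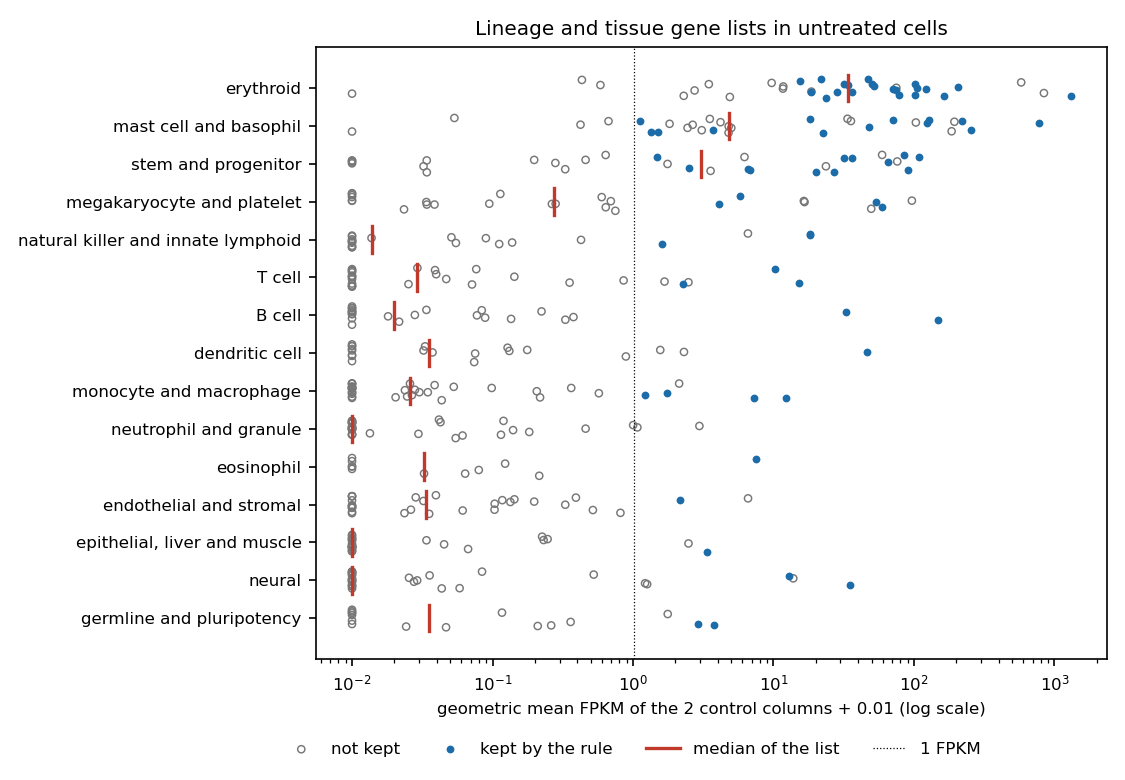
Geometric mean FPKM of the 2 control columns + 0.01 (x axis, log scale) for each member of 15 lineage and tissue lists; filled points were kept, open points were not, red bars are list medians and the dotted line marks 1 FPKM. The erythroid, mast cell and stem cell medians lie above 1 FPKM, and the medians of the other 12 lists lie below it.

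The kept members of the mast cell and basophil list included IgE receptor chains, granule genes and a cytokine receptor. Ms4a2, the beta chain of the IgE receptor (chromosome 19, 11691683 to 11698133 in mm9), was at 173 and 95.7 FPKM. Srgn, the proteoglycan core on which granule contents are packed, was at 1056 and 569 FPKM. Il1rl1, the receptor chain for interleukin 33, was at 278 and 237 FPKM, rank 346. Tph1, the first enzyme of serotonin synthesis in mast cells, was at 295 and 163 FPKM, and Alox5, which starts leukotriene synthesis, at 157 and 97.7 FPKM. Slc18a2, which loads amines into granules, was at 31.98 and 16.03 FPKM. The proteases Cma1, a chymase, and Gzmb, granzyme B, were kept at 34.5 and 66.3 FPKM and 13.04 and 25.3 FPKM.

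The remaining 14 of the 27 mast cell genes at 1 FPKM or more in both columns differed by more than 2-fold, against 9.29% of all genes at that level. They split evenly, 7 higher in each column, where the shares over all genes were 5.94% higher in the CBD-table control and 3.36% higher in the 4-OHT-table control. Hdc, which makes histamine, was higher in the CBD-table control at 294 and 128 FPKM, and so was Il4, a cytokine of mast cells and basophils, at 77.8 and 14.6 FPKM. Lat, an adaptor of the IgE receptor pathway, was at 89.98 and 14.1 FPKM. In the other direction were Cpa3, above, and Cd63, a granule membrane protein, at 125 and 275 FPKM. The plot of mast cell and erythroid genes shows that the proteases Mcpt1 (1.58 and 11.1 FPKM), Mcpt2 (2.51 and 9.11 FPKM), Mcpt8 (1.85 and 3.80 FPKM) and Tpsb2 (1.40 and 4.24 FPKM) all went this second way. Mcpt1, Mcpt2 and Mcpt8 belong to 1 family at 1 locus, and whether reads were shared among them was not tested. Genes said to mark basophils were low but present, Mcpt8 as above and Prss34, a basophil protease, kept at 1.05 and 1.16 FPKM. Hpgds, the haematopoietic prostaglandin D synthase, was at 0.0458 and 0.0414 FPKM, and Mrgprb2, a receptor of connective tissue mast cells, was listed at 0 in both columns.

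**Figure D3:**
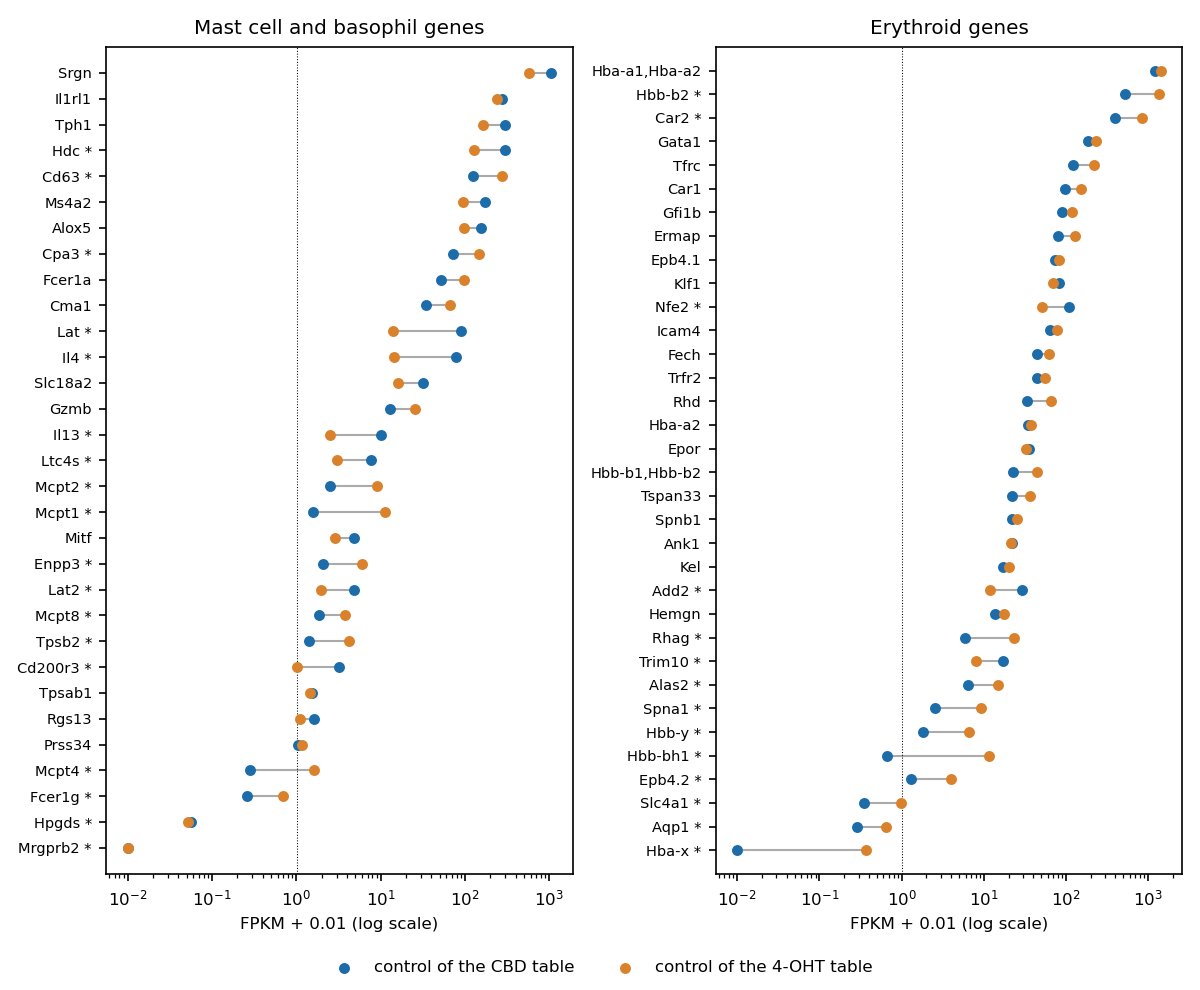
FPKM + 0.01 (x axis, log scale) of the 31 mast cell and basophil genes (left) and 34 of the 35 erythroid genes (right), with 1 point for each control column joined by a line; an asterisk marks genes that were not kept, and the dotted line is 1 FPKM. In the left panel 27 genes have both points at 1 FPKM or more, and in the right panel 30.

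The promoters of the mast cell genes Cpa3, Fcer1a and Ms4a2 are shown next. Whether GATA or RUNX factors act on them was not tested. RefSeq promoter windows on build GRCm38.p6, from 250 bases before to 50 bases after the gene start, were searched on both strands for the GATA motif (AGATAA or else AGATAG, and likewise TGATAA or else TGATAG), the RUNX motif (TGTGGT), a PU.1 motif (GAGGAAG) and a TATA motif (TATAAA). In the 3 windows below, on the gene's strand, capitals mark GATA motifs, which read TTATCT or TTATCA where they lie on the opposite strand. Their places are chr3:20242132-20242431, minus strand for Cpa3, chr1:173227180-173227479, minus strand for Fcer1a and chr19:11623670-11623969, minus strand for Ms4a2.
Cpa3: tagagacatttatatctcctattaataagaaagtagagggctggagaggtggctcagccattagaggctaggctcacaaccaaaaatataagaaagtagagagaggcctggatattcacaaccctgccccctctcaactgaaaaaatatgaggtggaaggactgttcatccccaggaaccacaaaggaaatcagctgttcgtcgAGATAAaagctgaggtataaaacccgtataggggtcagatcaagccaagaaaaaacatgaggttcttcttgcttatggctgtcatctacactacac
Fcer1a: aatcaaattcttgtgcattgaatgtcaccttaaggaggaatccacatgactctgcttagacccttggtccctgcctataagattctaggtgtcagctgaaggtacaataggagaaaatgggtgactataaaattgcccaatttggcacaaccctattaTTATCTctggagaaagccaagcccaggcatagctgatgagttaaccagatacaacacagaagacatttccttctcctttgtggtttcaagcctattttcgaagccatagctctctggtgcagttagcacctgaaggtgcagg
Ms4a2: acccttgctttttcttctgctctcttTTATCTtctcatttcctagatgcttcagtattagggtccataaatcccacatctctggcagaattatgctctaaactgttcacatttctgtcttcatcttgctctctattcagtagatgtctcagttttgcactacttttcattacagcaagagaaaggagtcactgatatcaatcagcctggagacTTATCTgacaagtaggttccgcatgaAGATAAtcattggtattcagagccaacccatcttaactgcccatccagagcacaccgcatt
Cpa3 had 1 GATA match, 46 bases before the start, Fcer1a had 1, 92 bases before it, and Ms4a2 had 3, at 224, 37 and 11 bases before it. RUNX matches lay 73 bases before the start of Cpa3 and 14 bases before that of Fcer1a. Of the 27 mast cell genes with a promoter in the table, 19 (70.4%) had a GATA match and 17 (63%) a RUNX match. A gene was counted, here and in the lists below, when any of its windows held a match. The shares were 33% and 18.9% over all 27025 genes, and 21.3% and 14.2% over the kept genes. Over genes under 0.1 FPKM in both columns they were 36.5% and 18%, above the shares of the kept genes. The TATA motif was found in 29.6% of the mast cell genes and 15.7% of all genes. Its share was 7.91% over the kept genes and 22.3% over genes under 0.1 FPKM in both columns. A match describes letters in a window and shows neither binding nor use.

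The neighbours of some of these genes were read at loci chosen after their values were seen and drawn in part in the plots of gene order. In the chymase and granzyme locus (chromosome 14, 56560288 to 56881097), 16 genes lie in a row and 2 were kept, Cma1 and Gzmb. They are its outermost genes because the stretch was cut at them. Between them, Mcpt1, Mcpt2 and Mcpt8, given above, were at 1 FPKM or more in both columns, the neutrophil protease gene Ctsg was at 1.64 and 0.599 FPKM, and Gzme, Gzmd, Gzmg, Gzmn and Gzmf, granzymes of killer cells, were under 0.1 FPKM in both columns. In the interleukin 1 receptor locus (chromosome 1, 40141613 to 40606142), 3 of 6 genes were kept and none was under 0.1 FPKM in both. Il1rl1 lay beside Il18r1, a chain of the interleukin 18 receptor, at 0.203 and 0.261 FPKM. The other kept genes there were Il1r1, the interleukin 1 receptor, at 12.9 and 8.44 FPKM, and Il1rl2, a related receptor for interleukin 36, at 7.51 and 7.75 FPKM. In the Ms4a locus (chromosome 19, 11518048 to 11715324), 2 of 8 genes were kept, Ms4a2 and its neighbour Ms4a6d, at 1.597 and 2.164 FPKM. On the other side of Ms4a2 lay Ms4a3, a gene of granulocyte and monocyte progenitors, at 0.619 and 1.83 FPKM. Next to Kit (chromosome 5, 75548316 to 76374453), the related receptor genes Pdgfra and Kdr were at 0.0156 and 0.0217 FPKM and 0.0525 and 0.220 FPKM.

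**Figure D4:**
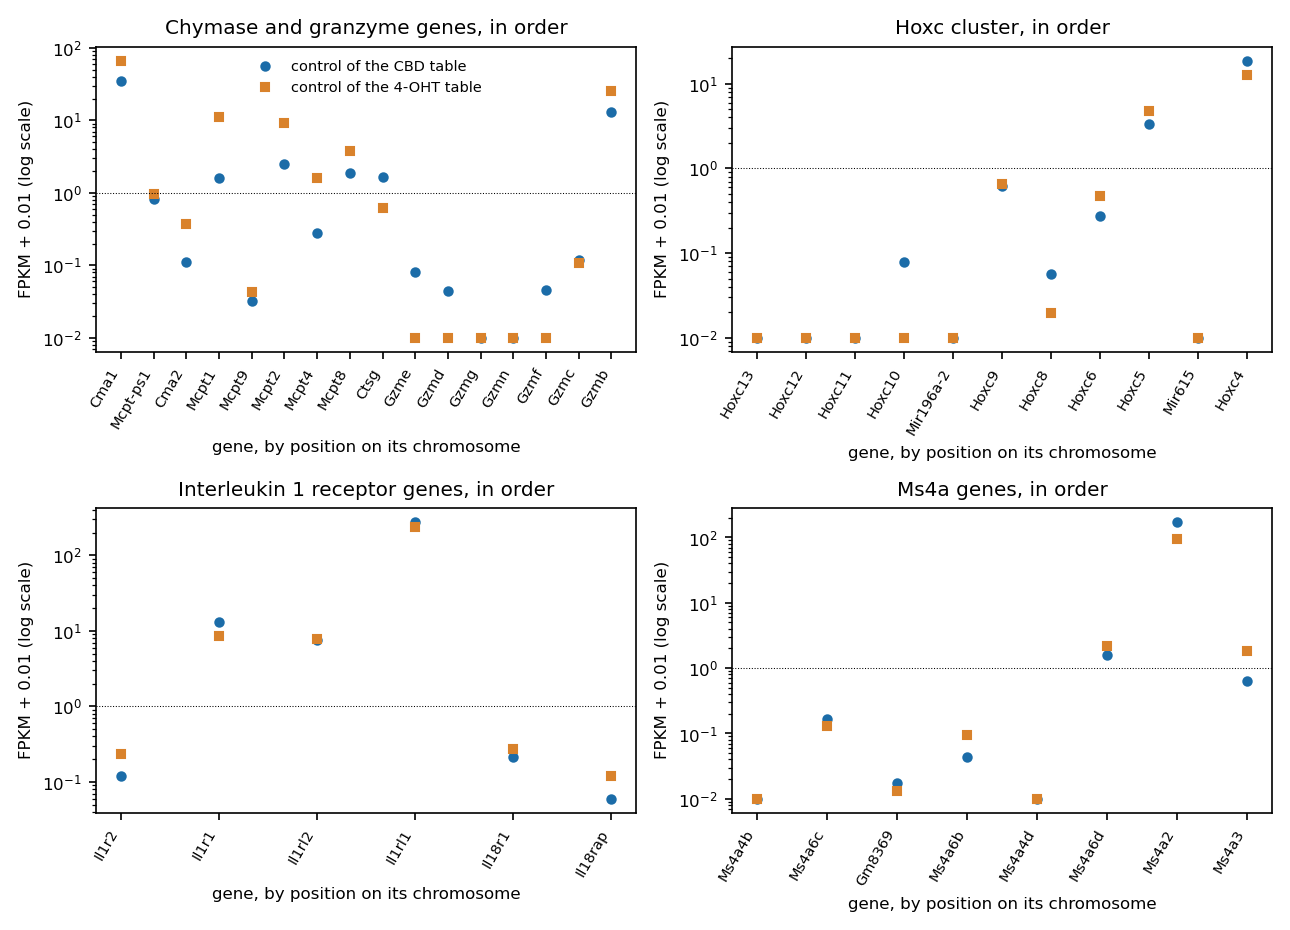
FPKM + 0.01 (y axes, log scale) of genes in their order along 4 loci, circles for the control column of the CBD table and squares for that of the 4-OHT table, with a dotted line at 1 FPKM. The highest points are Il1rl1 among the interleukin 1 receptor genes (3 of 6 kept) and Ms4a2 among the Ms4a genes (2 of 8 kept). In the Hoxc cluster they are Hoxc4 with Hoxc5 next to it (2 of 11 kept). In the protease locus they are Cma1 and Gzmb, the genes chosen as its ends (2 of 16 kept).

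The machinery behind the IgE receptor was read from a list added after values were seen, in which 16 of 24 genes were kept. The share over all genes was 40.3%. When IgE is bound, the kinase Lyn marks the tails of the beta and gamma chains, Syk docks on them, and adaptors pass the signal to phospholipase C. Lyn was at 43.7 and 50.8 FPKM, Btk, a kinase downstream, at 68.4 and 78.3 FPKM, and the adaptors Grb2 and Lcp2 were at 153 and 163 FPKM and 40.9 and 22.9 FPKM. Fcer1g, the gamma chain that carries the signal, was listed at 0.251 and 0.681 FPKM, and the entry for Syk, under its older symbol Sykb, at 0.00508 and 0.0168 FPKM. Whether the gene models behind these 2 low values captured the transcripts was not tested. Prkcb, a protein kinase C, was also under 0.1 FPKM in both. Cd247, the zeta chain of the T cell receptor and a relative of the gamma chain, was kept at 14.96 and 15.3 FPKM.

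Genes that make and store amines, with genes of granules and their fusion in general, formed a second added list. Of these, 13 of 21 were kept, beside 40.3% of all genes, and Lamp1, Snap23 and Stx4a were among the 13. Besides Tph1 and Slc18a2, Ddc, which converts the precursors to serotonin and dopamine, was at 155 and 102 FPKM, and Vamp8, a granule fusion protein, was at 224 and 350.5 FPKM. The enzymes that break amines down were low: Maob was at 0.362 and 0.980 FPKM, Maoa at 0.455 and 0.624 FPKM, and Hnmt, which inactivates histamine, was under 0.1 FPKM in both columns. Of 16 genes for lipid mediators made from arachidonate, another added list, 9 were kept, beside 40.3% of all genes. The highest were Gpx4 (300 and 207 FPKM) and Ptges3 (135 and 200 FPKM). Alox5ap, the partner of Alox5, was at 128 and 180.2 FPKM, Lta4h, which makes leukotriene B4, was at 78.8 and 59.6 FPKM, and Ltc4s, which makes leukotriene C4, was at 7.65 and 2.998 FPKM, over 2-fold apart. Of the 2 cyclooxygenases, Ptgs1 was kept at 3.98 and 7.75 FPKM, and Ptgs2 was under 0.1 FPKM in both columns.

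Erythroid genes were high in the same columns. Gata1, a factor that red cells, megakaryocytes and mast cells all need, was at 183 and 232 FPKM, rank 449. Klf1, the activator of beta globin and other red cell genes, was at 81.5 and 68.98 FPKM, rank 1390, and Epor, the erythropoietin receptor, at 35.2 and 32.8 FPKM. Tfrc, which takes up iron with transferrin, was at 123 and 218 FPKM, and Car1, a carbonic anhydrase, at 97.9 and 153 FPKM. Gfi1b, a repressor of erythroid and megakaryocytic cells, was at 89.5 and 117 FPKM, and Ermap, a membrane protein of erythroid cells, at 79.7 and 129 FPKM. Globin entries were high, with Hbb-b2, an adult beta globin, at 526 and 1348 FPKM, though the globin copies are nearly identical and the files list several joined and separate entries for them.

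The promoter of Klf1 is shown as an erythroid counterpart to those above, with its GATA motif in capitals, 80 bases before the start, at chr8:84901732-84902031, plus strand.
Klf1: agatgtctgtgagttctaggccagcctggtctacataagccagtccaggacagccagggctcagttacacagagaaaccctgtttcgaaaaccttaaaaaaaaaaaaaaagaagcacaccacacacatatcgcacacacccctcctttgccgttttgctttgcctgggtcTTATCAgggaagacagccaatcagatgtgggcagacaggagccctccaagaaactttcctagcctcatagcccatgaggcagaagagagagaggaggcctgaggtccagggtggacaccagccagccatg
Of the 24 erythroid genes with a promoter in the table, 20 (83.3%) held a GATA motif and 6 (25%) a RUNX motif, beside 33% and 18.9% of all genes.

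Genes of haem and of the red cell membrane included lower members. In the whole list 10 of the 31 members at 1 FPKM or more in both columns were over 2-fold apart, 7 of them higher in the 4-OHT-table control, where the shares over all genes were 9.29% and 3.36%. Alas2, the rate-limiting haem enzyme of red cells, was at 6.34 and 14.8 FPKM, and Rhag, a partner of the Rh blood group proteins, at 5.94 and 23.2 FPKM. The membrane skeleton genes Spna1 and Epb4.2, alpha spectrin and protein 4.2, were at 2.58 and 9.25 FPKM and 1.30 and 4.03 FPKM. Slc4a1, the anion exchanger band 3 of mature red cells, reached 1 FPKM in neither column, at 0.336 and 0.989 FPKM, and so did the water channel Aqp1, at 0.279 and 0.642 FPKM. Of the embryonic globins, Hbb-y was at 1.81 and 6.61 FPKM, Hbb-bh1 at 0.648 and 11.5 FPKM and Hba-x at 0 and 0.361 FPKM.

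Genes of the megakaryocyte, the sister branch of the red cell, were present in part. The kept members were Zfpm1, the GATA1 cofactor, at 54.9 and 63.8 FPKM, the platelet glycoproteins Gp5 and Gp1ba at 47.4 and 61.4 FPKM and 6.34 and 5.25 FPKM, and Itga2b, the integrin CD41, at 3.36 and 5.02 FPKM. Pf4, the platelet chemokine, was at 34.2 and 72.1 FPKM, over 2-fold apart. Other defining genes were low: Gp9, which pairs with Gp1ba on platelets, was at 0.228 and 0.284 FPKM, and Vwf, which tethers platelets to vessel walls, at 0.0753 and 0.0109 FPKM. Of the 26 genes, 10 were under 0.1 FPKM in both columns, among them Gp6, the platelet collagen receptor, listed at 0 in both.

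Of the 30 stem and progenitor genes, 12 were kept and 7 were under 0.1 FPKM in both columns, and both groups held transcription factors. The 8 highest kept members included Myb, Kit and Tal1, above. Lmo2, the adaptor of the TAL1 complex, was at 92.7 and 78.4 FPKM, Fli1, an ETS factor, at 45.6 and 28.8 FPKM, and Msi2, an RNA-binding protein of stem cells, at 20.5 and 19.7 FPKM. Cd34, the sialomucin used to sort human progenitors, was at 3.06 and 2.06 FPKM. Ly6a, the Sca-1 antigen of mouse stem cells, was at 2.24 and 5.65 FPKM, over 2-fold apart. Flt3, a receptor of early lymphoid and myeloid progenitors, was at 0.0145 and 0.0343 FPKM. Hoxa9 was listed at 0 in both columns, and Mecom, a stem cell factor, and Prom1, the CD133 antigen, were under 0.1 FPKM in both.

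Genes of neutrophils and their granules, by contrast, were near 0 in these columns. None of 30 neutrophil genes was kept and 22 were under 0.1 FPKM in both. Mpo, the myeloperoxidase used to recognise myeloid leukaemia, was at 0.0662 and 0.0151 FPKM, and Elane, neutrophil elastase, was listed at 0 in both columns. Prtn3, proteinase 3, was at 0.131 and 0.0921 FPKM. The calcium-binding proteins S100a8 and S100a9 and the granule proteins Camp and Ltf were listed at 0 in both. Csf3r, the receptor for G-CSF, was at 0.168 and 0.178 FPKM. Cxcr2, a chemokine receptor of neutrophils, was the single gene at 1 FPKM in both columns, at 1.88 and 4.67 FPKM.

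The promoters of Mpo (chr11:87793534-87793833, plus strand) and Elane (chr10:79886062-79886361, plus strand) are shown as examples from this list, with the PU.1 motif GAGGAAG in capitals.
Mpo: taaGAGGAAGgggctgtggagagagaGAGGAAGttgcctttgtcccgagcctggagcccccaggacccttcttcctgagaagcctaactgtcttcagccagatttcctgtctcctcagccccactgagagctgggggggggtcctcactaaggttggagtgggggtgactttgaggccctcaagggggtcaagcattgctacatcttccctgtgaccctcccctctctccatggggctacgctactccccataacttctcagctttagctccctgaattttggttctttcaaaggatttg
Elane: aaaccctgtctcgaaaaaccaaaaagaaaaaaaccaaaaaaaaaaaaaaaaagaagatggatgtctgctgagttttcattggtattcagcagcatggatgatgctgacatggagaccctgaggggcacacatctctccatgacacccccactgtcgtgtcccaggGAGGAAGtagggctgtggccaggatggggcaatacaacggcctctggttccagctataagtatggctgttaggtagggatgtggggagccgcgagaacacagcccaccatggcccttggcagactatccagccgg
Mpo had 2 matches, 247 and 224 bases before the start, and Elane 1, 85 bases before it. Of 28 neutrophil genes with a promoter in the table, 10 (35.7%) held this motif and 7 (25%) a GATA motif, where 15.4% and 33% of all genes did. The PU.1 share was 35% in the megakaryocyte list and 40% in the monocyte and macrophage list, and the GATA share was 40% in each. Kept genes and genes under 0.1 FPKM in both columns had similar PU.1 shares, 14.9% and 14.7%. Sfpi1, which encodes PU.1, was itself kept, at 45.7 and 28.6 FPKM.

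Monocyte and macrophage genes were also mostly low, 25 of 35 under 0.1 FPKM in both. Csf1r, the receptor for M-CSF, was at 0.0102 and 0.0106 FPKM, and Cd14, a receptor for bacterial lipopolysaccharide, at 0.550 and 0.573 FPKM. C1qa, a complement gene of tissue macrophages, was at 0.0284 and 0 FPKM. The 4 kept members were Fcgr3, an IgG receptor that mast cells also carry, at 12.6 and 12.03 FPKM, the chemokine receptors Ccr2 and Cx3cr1 at 8.43 and 6.15 FPKM and 1.71 and 1.75 FPKM, and Cd68, a lysosomal protein, at 1.10 and 1.30 FPKM. Of the dendritic cell list, Bst2 was the 1 kept, at 61.99 and 34.5 FPKM, and the class II genes H2-Ab1, H2-Aa and H2-Eb1 and their activator Ciita were under 0.1 FPKM in both columns. Among eosinophil genes, Epx, the eosinophil peroxidase, was listed at 0 in both columns and Prg2, the major basic protein, was at 0.0397 and 0.123 FPKM. Siglec5, the older symbol of the eosinophil lectin Siglec-F, was kept at 7.62 and 7.44 FPKM.

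Lymphoid genes followed the same pattern, with a few exceptions. Pax5, Ebf1 and Rag1, which mark B cells and their precursors, were under 0.1 FPKM in both columns, and Cd79a, a signalling chain of the B cell receptor, was at 0.0593 and 0.104 FPKM. The 2 kept members were Cd24a, a surface protein shared with erythroid cells, at 141 and 155 FPKM, and Blnk, an adaptor, at 37.4 and 28.98 FPKM. Of the T cell genes, Cd3e and Cd4 were listed at 0 in both columns and Cd8a was at 0.0416 and 0.0326 FPKM, whereas Cd247, Gata3 and Lck were kept, Gata3 at 14.03 and 7.46 FPKM and Lck, a kinase of T cells, at 2.95 and 1.71 FPKM. Of the natural killer genes, Ncr1, a receptor of these cells, was at 0.0200 and 0.101 FPKM, and Klrb1c and Prf1, perforin, were under 0.1 FPKM in both. Nkg7, a cytotoxic granule protein, was kept at 24.5 and 13.4 FPKM, as were Gzmb and the factor Eomes, at 1.90 and 1.35 FPKM.

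Genes shared by most white blood cells were read beside them, from a list added after values were seen, and 20 of 30 were kept. The share over all genes was 40.3%. Arhgdib, a regulator of small GTPases, was at 452 and 287 FPKM, Laptm5, a lysosomal protein, at 342 and 288 FPKM, and Rac2, the Rac protein of blood cells, at 338 and 226 FPKM. Fermt3, which activates integrins, was at 291 and 189 FPKM, and Spn, the CD43 antigen, at 123 and 114 FPKM. Coro1a, an actin regulator, was over 2-fold apart at 313 and 81.03 FPKM. Ptprc, which encodes the common leukocyte antigen CD45 and is carried by nearly all white cells, was listed at 0.151 and 0.104 FPKM. The gene models behind this value could not be checked here, so a low value may not be a low level in the cells. Lsp1, a leukocyte actin-binding protein, was listed at 0 in both columns.

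The receptors through which blood cells receive growth signals were read next. Of 37 cytokine receptor genes, 10 were kept, 27% beside the 40.3% background, and 11 were under 0.1 FPKM in both. Kit and Il1rl1 led the kept genes. Il2rg, the common gamma chain of the interleukin 2 family, was at 79.2 and 59.3 FPKM, and Il4ra, its partner for interleukin 4, was at 11.03 and 6.76 FPKM. Il10rb, a chain of the interleukin 10 receptor, was at 15.9 and 19.7 FPKM, and Il1rap, the shared accessory chain of the interleukin 1 and 33 receptors, was at 10.3 and 7.47 FPKM. The highest gene of the list was not kept. Csf2rb, the common beta chain for interleukin 3, interleukin 5 and GM-CSF, was at 526 and 223 FPKM, and Csf2rb2, its mouse-specific copy for interleukin 3, was at 243 and 108 FPKM. The 2 copies are close relatives, and reads may have been split between them.

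The ligand-binding partners of that beta chain were much lower than the chain itself. Il3ra, the alpha chain for interleukin 3, was at 0.147 and 0.289 FPKM, Csf2ra, for GM-CSF, at 1.24 and 1.33 FPKM, and Il5ra, for interleukin 5, at 0.290 and 0.145 FPKM. Il9r, the receptor for the mast cell growth factor interleukin 9, was at 83.5 and 27.4 FPKM, over 2-fold apart. Receptors of other branches were low, with Csf1r, Csf3r and Flt3 as above, and Il7r, of early lymphocytes, and Il6ra under 0.1 FPKM in both. In this list all 6 genes over 2-fold apart were higher in the CBD-table control, as were 577 of the 903 over all genes.

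The ligands of these receptors were mostly low in the same columns. Of 94 cytokine and growth factor genes, 10 were kept (10.6%) and 42 were under 0.1 FPKM in both. Kitl, the ligand of Kit, and Epo, Thpo and Il9 were listed at 0 in both columns, and Il33, the ligand of Il1rl1, was at 0.0486 and 0.0545 FPKM. Il3 was at 0.173 and 0 FPKM and Csf2, GM-CSF, at 0.407 and 0.148 FPKM. The kept ligands were led by Hdgf (651 and 827 FPKM), Mif (419 and 367 FPKM) and Tgfb1, a growth inhibitor of progenitors, at 287 and 196 FPKM. Bmp4 was kept at 6.98 and 5.95 FPKM, and Vegfb, a vascular factor, at 23.2 and 17.2 FPKM. Flt3l, the ligand of Flt3, was at 18.1 and 7.86 FPKM, and Angpt1, the ligand of the endothelial receptor Tek, at 42.7 and 13.1 FPKM while Tek was at 1.05 and 0.0335 FPKM. Tgfbr1, the type I receptor for Tgfb1, was kept at 3.14 and 4.34 FPKM, and the type II receptor Tgfbr2 was at 0.391 and 3.31 FPKM.

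**Figure D5:**
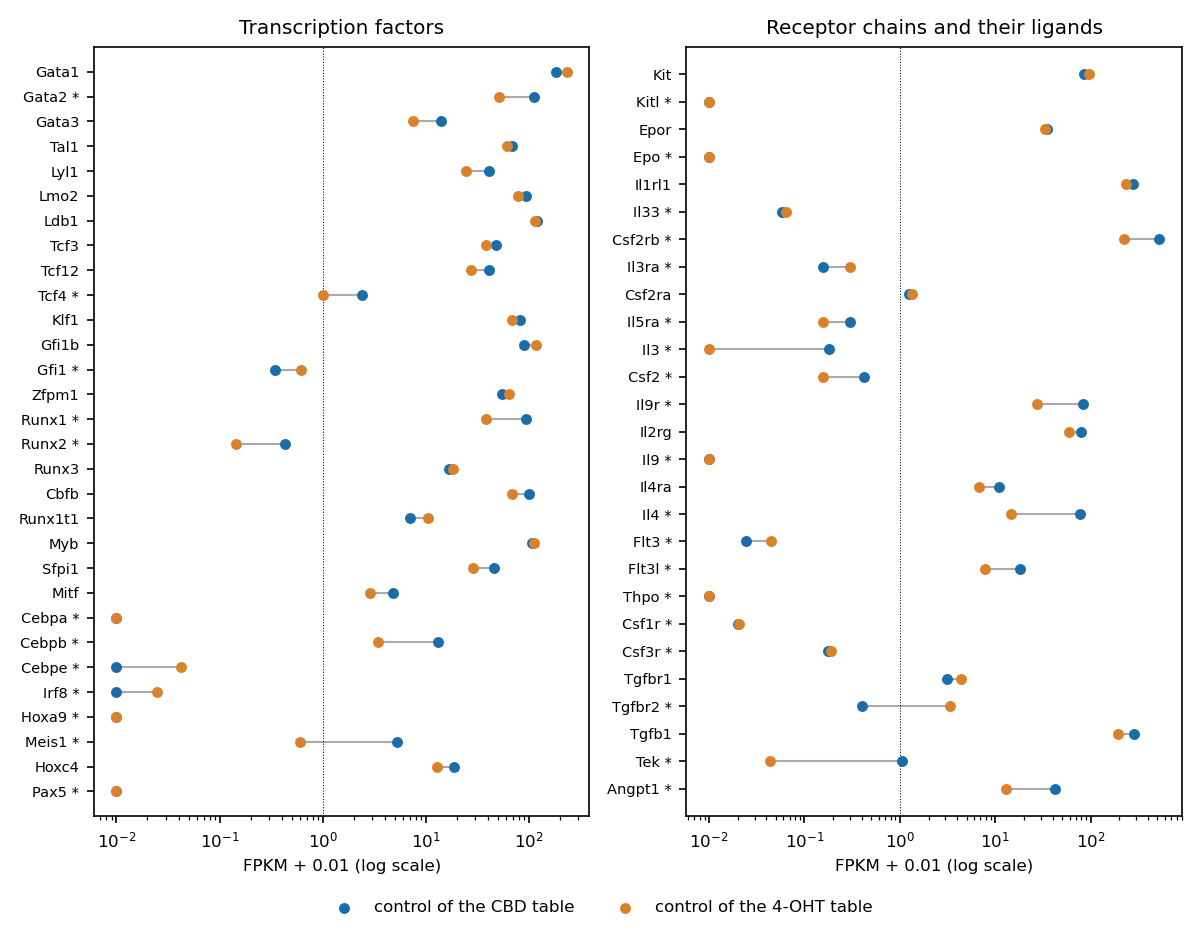
FPKM + 0.01 (x axis, log scale) of 30 transcription factor genes (left) and 27 receptor chains and ligands (right), 1 point for each control column, with asterisks on genes that were not kept and a dotted line at 1 FPKM. The GATA, TAL1, LMO2 and RUNX groups lie above 1 FPKM except Gfi1 and Runx2, Cebpa, Hoxa9 and Pax5 lie at 0, and Kit, Epor and Il1rl1 lie far above their ligands Kitl, Epo and Il33.

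Other surface receptors were kept at varied rates, to be read beside the 40.3% of all genes kept. Of 35 receptors for interferons and the TNF and TGF families, 10 were kept, led by Ifnar2, a chain of the type I interferon receptor, at 28.9 and 29.4 FPKM, and Acvr1b, an activin receptor, at 23.3 and 26.02 FPKM. The death receptor Fas and the TNF receptor genes Tnfrsf1a and Tnfrsf1b were under 0.1 FPKM in both columns. Of 45 receptor tyrosine kinases other than Kit and Flt3, 4 were kept and 30 were under 0.1 FPKM in both. The 4 were Ryk, a Wnt receptor, at 21.1 and 27.5 FPKM, Igf1r, the receptor for insulin-like growth factor, at 16.8 and 8.44 FPKM, Epha2 at 4.05 and 3.07 FPKM and Axl at 1.02 and 1.29 FPKM. Kinases inside the cell, in an added list, were more often kept, 13 of 27, with Csk, the inhibitor of Src family kinases, at 209 and 172 FPKM and Jak2, which serves Epor, at 38.5 and 27.6 FPKM. Fgr, a Src family kinase of granulocytes and macrophages, was under 0.1 FPKM in both.

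Of 70 G protein coupled receptors, 19 were kept and 29 were under 0.1 FPKM in both. F2r, the thrombin receptor, was highest at 135 and 136 FPKM, followed by the adhesion receptors Gpr56 (62.4 and 89.3 FPKM) and Cd97 (85.4 and 58.7 FPKM). Adora3, the adenosine receptor of mouse mast cells, was at 51.6 and 35.5 FPKM, and the prostaglandin receptors Ptgir and Ptger3 were at 31.4 and 28.4 FPKM and 33.3 and 21.3 FPKM. Cnr2, the cannabinoid receptor of immune cells, was at 24.7 and 16.3 FPKM. Cxcr4, which holds many blood progenitors in the marrow, was at 0.125 and 0.477 FPKM. Ccr3, Cxcr3 and Ccr7, receptors of eosinophils and lymphocytes, were under 0.1 FPKM in both columns.

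Adhesion molecules were the receptor list kept at the background rate, 18 of 44 (40.9%). Cd47, the signal against engulfment, was at 204 and 129 FPKM, Cd81 at 163 and 106 FPKM and Icam2 at 60.7 and 90.2 FPKM. Itgb1, the beta 1 integrin, was at 107 and 149.5 FPKM, and its partners Itga5 and Itga4, which bind fibronectin, were at 45.3 and 27.7 FPKM and 40.1 and 29.2 FPKM. Itgb7, which pairs with Itga4 on mast cell precursors and lymphocytes, was over 2-fold apart at 129.8 and 25.5 FPKM. Itgam and Itgax, the CD11b and CD11c integrins of myeloid cells, and Vcam1 were under 0.1 FPKM in both columns. Of 53 Fc, immunoglobulin-like and pattern receptors, 10 were kept, led by Ly6e at 319 and 278 FPKM and the 2 IgE receptor chains. The inhibitory IgG receptor Fcgr2b was at 13.8 and 8.20 FPKM and Cd200r1, an inhibitory receptor, at 11.3 and 5.89 FPKM. The Toll-like receptor genes Tlr1 to Tlr9 were all under 0.1 FPKM in both columns.

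Transcription factors were kept at about the background rate, 150 of 350 in 8 lists (42.9%), but the families differed. Each list count below stands beside the 40.3% of all genes kept. The RUNX and ETO list was the most complete, with 24 of 28 kept and none under 0.1 FPKM in both. Cbfb, the partner that stabilises RUNX proteins on DNA, was at 99.4 and 68.3 FPKM, and Ldb1, which bridges TAL1 and GATA1 complexes, was at 118 and 115 FPKM. Prmt1, a methyltransferase that AE9a is known to bind, was at 171 and 203 FPKM, and the corepressor enzymes Hdac1 and Hdac2 were at 112 and 144 FPKM and 42.7 and 62.5 FPKM. Runx3 was kept at 16.5 and 18.2 FPKM, whereas Runx2, of bone cells, was at 0.424 and 0.135 FPKM. Of the ETO family, Runx1t1 was at 6.95 and 10.4 FPKM, Cbfa2t3 at 13.2 and 12.8 FPKM and Cbfa2t2 at 9.49 and 10.6 FPKM.

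Of 44 GATA, TAL and KLF factors, 19 were kept, a rate near the 40.3% of all genes. Gata1, Gfi1b, Klf1, Tal1 and Zfpm1, given above, were its 5 highest kept members. Gata2, which in progenitors and mast cells acts before or beside Gata1, was over 2-fold apart at 113 and 51.3 FPKM, as was Nfe2, a globin and platelet factor, at 109 and 51.3 FPKM. Lyl1, a relative of Tal1, was at 41.03 and 24.4 FPKM. Mitf, the helix-loop-helix factor needed for mast cells, was kept at a lower level, 4.77 and 2.88 FPKM. Gfi1, the counterpart of Gfi1b in granulocytes and lymphocytes, was at 0.338 and 0.598 FPKM. Gata4, Gata6 and Klf4, of heart, gut and monocytes, were under 0.1 FPKM in both columns.

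Of 25 ETS factors, 15 were kept, led by Elf2 (41.2 and 47.8 FPKM), Elf1 (43.3 and 41.2 FPKM) and Fli1, above. The PU.1 relatives Spib and Spic, of B cells and macrophages, were under 0.1 FPKM in both columns. In the list of CEBP, IRF and STAT factors, 10 of 26 were kept, led by Stat5a and Stat5b, which act under Kit and Epor, at 64.2 and 67.5 FPKM and 48.4 and 47.8 FPKM, and Stat3 at 59.3 and 47.5 FPKM. Cebpa, the factor needed for granulocytes, was listed at 0 in both columns. Cebpe was at 0 and 0.0323 FPKM and Irf8, of monocytes and dendritic cells, at 0 and 0.0149 FPKM. Cebpb was over 2-fold apart at 13.02 and 3.46 FPKM, and so was Ddit3, the stress factor CHOP, at 191 and 26.9 FPKM.

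HOX genes, which many leukaemias of immature cells express, were mostly at 0. Of 60 HOX and homeobox genes, 11 were kept, 38 were under 0.1 FPKM in both, and 31 were listed at 0 in both. Hhex, a homeobox factor of early blood and liver, was the highest, at 68.8 and 35.7 FPKM. Only 2 clustered HOX genes were kept, the neighbours Hoxc4 and Hoxc5, at 18.6 and 12.8 FPKM and 3.33 and 4.76 FPKM. They lie at 1 end of the Hoxc cluster (chromosome 15, 102751562 to 102867283), where Hoxc9 was at 0.610 and 0.651 FPKM and Hoxc13, Hoxc12 and Hoxc11 at the other end were listed at 0. Hoxc4 and Hoxc5 transcripts overlap, and reads may have been shared between them. Meis1, the cofactor of HOXA9, was at 5.19 and 0.591 FPKM. Pou4f1, a factor known to be high in human t(8;21) leukaemia, was kept at 2.45 and 3.003 FPKM.

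Among 45 helix-loop-helix and MYC family genes, 21 were kept, also near the 40.3% of all genes. Myc was at 93.5 and 154 FPKM with its partner Max at 51.5 and 68.3 FPKM, and the E proteins Tcf3 and Tcf12, which pair with TAL1, were at 47.6 and 37.9 FPKM and 40.5 and 27.1 FPKM. Id1, the floxed gene of this model and an inhibitor of E proteins, was present in both columns but over 2-fold apart, at 34.2 and 15.4 FPKM. Of the other ID genes, Id2 was at 4.28 and 10.1 FPKM, Id3 at 5.21 and 2.45 FPKM, and Id4 was under 0.1 FPKM in both columns. The list of other blood and leukaemia factors had 46 of 89 kept, with Ikzf1, the lymphoid and progenitor factor Ikaros, at 128 and 76.9 FPKM, and E2f4, a cell cycle repressor, at 92.5 and 122 FPKM. Bcl11b, Tcf7 and Lef1, of T cells, were under 0.1 FPKM in both columns. Of 40 nuclear receptors, 10 were kept, led by Nr1h2, an oxysterol receptor, at 32.7 and 17.6 FPKM, and Nr3c1, the glucocorticoid receptor, was at 20.8 and 13.6 FPKM. Esr1, whose human counterpart gives CreER its hormone-binding part, was at 0.467 and 0.414 FPKM, and whether reads from CreER were counted to it was not tested.

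Of 40 factors at 1 FPKM or more in both columns and over 2-fold apart, 35 were higher in the CBD-table control, where 577 of the 903 such genes in the whole table were. Among them were Atf4, which drives amino acid and stress genes, at 775 and 318 FPKM, and the immediate early genes Egr1 (57.6 and 2.26 FPKM) and Junb (56.7 and 13.8 FPKM). The highest such genes of the whole table, with small RNAs and predicted genes passed over, were divided. Hbb-b2 and the chaperones Hspa8 (1089 and 2943 FPKM) and Hsp90aa1 (738 and 1828 FPKM) were higher in the 4-OHT-table control. So were the carrier Slc25a5 (489.7 and 1053 FPKM), Car2 (397 and 848 FPKM) and Prdx1 (274 and 598 FPKM). Atf4, the respiratory subunit Uqcrq (536 and 263 FPKM), Csf2rb and the amino acid transporter Slc7a5 (452 and 219 FPKM) were higher in the CBD-table control. Whether the 2 tables were normalized together is not stated, and with 1 value a column these differences have no replicate check.

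Genes linked to human t(8;21) leukaemia were found in part. Their list does not separate genes raised in that disease from genes lowered in it. Of 13 such genes, 5 were kept: Kit, Pou4f1 and Cd34, above, Ubash3b, which dampens kinase signals, at 12.5 and 11.5 FPKM, and Anpep, the CD13 antigen, at 1.20 and 1.47 FPKM. Mpo, Pax5, Cebpa, Cd33, Ncam1 and Trh were under 0.1 FPKM in both columns. Genes that are mutated in human myeloid leukaemia, an added list, were nearly all present, with 27 of 31 kept beside 40.3% of all genes. Whether they are as widely expressed in other cells was not tested. Npm1, a nucleolar protein, was highest, at 1767 and 1976 FPKM, followed by the splicing factor Srsf2 (274 and 303 FPKM) and the cohesin subunit Rad21 (244 and 226 FPKM). Wt1 was over 2-fold apart at 1.23 and 11.7 FPKM, and Flt3 and Cebpa, above, were the 2 under 0.1 FPKM in both.

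Genes of other tissues, counted together with a list of sex chromosome genes, were low, with 6 of 109 kept and 76 under 0.1 FPKM in both. Cdh5, of endothelium, was listed at 0 in both columns, Pecam1 was at 0.213 and 0.479 FPKM and Col1a1, a collagen of stroma, at 0.111 and 0.0785 FPKM. Of the neural genes, Snap25, a synaptic protein, was at 0.0697 and 0.00945 FPKM and Gfap, of astrocytes, at 0.703 and 2.23 FPKM. Mbp was kept at 38.6 and 31.96 FPKM; besides myelin basic protein its locus is known to make the golli proteins of blood cells. Tubb3, a tubulin of neurons, was over 2-fold apart at 20.5 and 9.33 FPKM. Nanog and Dazl, of pluripotent and germ cells, were kept at low levels, 2.79 and 5.05 FPKM and 3.02 and 2.80 FPKM, and Pou5f1 and Sox2 were under 0.1 FPKM in both; Nanog has pseudogenes whose reads may have been counted to it. Xist, the RNA of the inactive X chromosome, was at 9.46 and 18.99 FPKM, and the other 9 sex chromosome genes read, among them Ddx3y and Kdm5d of the Y chromosome, were under 0.1 FPKM in both columns.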

How the data were processed

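RNA from leukemia cells was sequenced with Illumina libraries, per the labels' protocols. Per the submitters' processing notes, reads were handled with Bowtie 0.12.2 and Cuffdiff on build mm9; their settings and the gene annotation are not stated there. The authors deposited 2 tables with 1 FPKM value per gene for each group compared, and the 2 control columns were used here as the authors' values. The columns used hold FPKM values without read counts, so the depth and the precision of a value are unknown, and how many libraries stand behind a column is not stated. Where the labels number the samples, nothing says whether they came from separate cultures or mice.

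Genes at 1 FPKM or more in both columns and within 2-fold were kept and ranked by geometric mean, with Python 3.11.15, pandas 2.3.3 and numpy 2.4.6. The columns' values were not rescaled and no pseudocount was used, except 0.01 FPKM for drawing. On simulated data, the step that keeps genes was checked only against its own rule. List matching, symbol patterns and motif counts were not checked in this way. No test between columns was made, because each has 1 value. Of 1300 list entries, 9 were matched by a RefSeq synonym and 4 were not matched. Of the symbols, 23 had been turned into dates and 70 entries join several symbols.

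The members, the 32 lists and the rule for named genes were chosen with earlier results of these data known, and 6 further lists and the loci were added after values were seen. The rule names the given markers, the 20 highest kept genes apart from predicted genes and small RNAs, and the 10 highest genes over 2-fold apart. In that last set predicted genes and small RNAs were passed over too, which the rule did not state. The rule also names from each list up to 8 kept members, up to 5 over 2-fold apart and up to 8 under 0.1 FPKM in both, and 2 genes on each side of each limit. Other genes named were chosen after their values were seen. A few genes that the rule would name are not reported here, though counts over lists include them. Promoter sequences and gene types come from RefSeq on GRCm38.p6, which is not the build of the tables, so promoter coordinates and mm9 positions are not comparable. Alternatives tried were other minimums, other fold limits, pseudocounts of 0.1 and 1 FPKM, scaling by the median ratio, genes with status OK alone, and each control column alone.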

Additional observations from a re-analysis of the deposited data

How the results depend on the processing

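Under the rule 8813 genes were kept, and between 7033 (1.5-fold limit) and 11470 (no minimum) under the alternatives, within 1.5 times the main count for each. With 1 control column alone, 9952 to 10086 genes reached the minimum. Of mast cell and basophil genes, 13 were kept, 4 with a 1.5-fold limit, 20 with a 3-fold limit, and 27 to 28 with 1 column alone. Erythroid genes kept were 21, and 31 to 32 with 1 column alone. For stem and progenitor genes these were 12, and 17 to 19. Of megakaryocyte genes 4 were kept, 11 with no minimum and 9 to 10 with 1 column alone. Of neutrophil genes 0 were kept, 6 with no minimum, 1 with a 3-fold limit, 1 with a pseudocount of 1 FPKM, and 2 with either column alone. Of monocyte and macrophage genes 4 were kept, 2 with a minimum of 5 FPKM and 12 with no minimum. Fewer or more genes pass these limits by construction. Over all 39 counts, none moved by more than 1.5 times with a minimum of 0.5 FPKM or with genes of status OK alone, 1 did with scaling by the median ratio, 15 with the 1.5-fold limit and 22 with no minimum. No paired analysis was possible because each table holds 1 control value per gene and no comparison between groups was made. Depth is unknown, so no limit can be set on what a value near 0 allows.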
